A study of Danio rerio with 58 samples.

Results

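The genes described here are duox and the genes around thyroid hormone in zebrafish embryos kept under gamma irradiation. Duox was chosen by its counts. It was the only gene called higher by edgeR at 48 hours post fertilization (hpf) in embryos exposed to 0.5 mGy/h. DESeq2, the tool of the study, called more genes in this comparison, as given at the end. The other genes were chosen by name as parts of the thyroid hormone system: tg, tpo, slc5a5, tshr, dio1, dio2, dio3b, thraa and thrb. Of these 10 genes, 8 were matched to 1 identifier each among the 32057 genes in the counts. No identifier was matched to tpo. The symbol THRA stands on 2 identifiers, ENSDARG00000000151 and ENSDARG00000052654, and the names table does not say which of them is thraa, so both are described by identifier and are left out of the counts of members.

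RNA was sequenced from pools of whole AB embryos or larvae, exposed from about 1 hpf to 0.5, 5 or 50 mGy/h until 24, 48 or 96 hpf, each with unexposed controls of the same irradiation batch. The 0.5 mGy/h samples belong to batches I32 and I10, and the 5 and 50 mGy/h samples to batch I17, where both dose rates share the same controls. Batch and the step from 0.5 mGy/h to the higher dose rates therefore cannot be told apart. The comparisons use 46 of 58 samples, in groups of 2 to 5. Of the rest, 7 had been set aside as outliers, and 5 from the 24 hpf stage of batch I10 are given separately. The samples of a comparison are separate pools from 1 irradiation batch, so p-values measure the spread between such pools. Samples held 28278920 to 49971607 reads on genes, and levels are given as CPM, the read count of a gene scaled to the size of its library. The limit that a count of 0 allows, 3 reads, corresponded to 0.0600 to 0.106 CPM.

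Thyroid hormone is made in follicles, where the sodium/iodide symporter encoded by slc5a5 brings in iodide under control of the thyrotropin receptor encoded by tshr. Dual oxidase, encoded by duox, produces the hydrogen peroxide with which thyroid peroxidase, encoded by tpo, couples iodide to thyroglobulin, the product of tg. Dual oxidase is also active outside the thyroid, in epithelia of the skin and gut, where its peroxide serves wound signalling and defence. Deiodinases then act on the hormone in tissues: dio2 encodes an activating enzyme, dio3b an inactivating one, and dio1 an enzyme that can do both. The receptors that bind the hormone in the nucleus are encoded by the thra genes and thrb.

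Duox (ENSDARG00000062632) was measured at 21.1, 26.2 and 27.5 CPM in the 3 samples exposed to 0.5 mGy/h at 48 hpf in batch I10, against 12.9, 11.3, 14.0 and 15.5 CPM in the 4 controls. Every exposed sample was above every control. The log2 fold change of 0.90, 1.87-fold on the linear scale, is the value that selected the gene, so it is given as a description. The genes next in line on the far side of the threshold, an adjusted p of 0.01 with at least a 1.5-fold change, were G6PC1 and PCK1, which encode enzymes of glucose production, with log2 fold changes of 0.65 and 1.48. In this comparison 0.0505% of 19821 genes were called, and of the 5 other members tested 0 were called in edgeR and 0 in DESeq2, with 2 at an unadjusted p under 0.05. Over all genes tested 3981 had an unadjusted p under 0.05.

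The same stage in batch I17, which the selection did not use, gave 9.17 and 6.87 CPM of duox in samples under 5 mGy/h and 13.5, 8.95 and 7.94 CPM in samples under 50 mGy/h, against 6.24, 4.16 and 3.17 CPM in the controls. Each of these exposed samples lay above each of the controls, and the spread within the groups was wide. The 5 mGy/h sample set aside as an outlier was at 5.64 CPM, within the range of the controls, and with it the log2 fold change at 5 mGy/h was 0.69, with an adjusted p of 0.309 in edgeR. The log2 fold change was 0.84 ± 0.29 (SE) at 5 mGy/h and 1.20 ± 0.26 (SE) at 50 mGy/h, with adjusted p-values of 0.158 and 0.0190 in edgeR's quasi-likelihood test. Neither passed the threshold of 0.01. DESeq2 gave 1.21 at 50 mGy/h with an adjusted p of 0.000729, past the threshold. Between the 2 dose rates the log2 difference was 0.36, and 0.0% of 19802 genes were called, with 615 at an unadjusted p under 0.05. Background calls were 0.157% of genes at 5 mGy/h and 1.53% at 50 mGy/h.

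Leaving out single samples kept the 50 mGy/h value between 0.95 and 1.49. Without replicate 8 of the 50 mGy/h group it was 1.35 and was called, with an adjusted p of 0.00267 in edgeR.

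**Figure D1:**
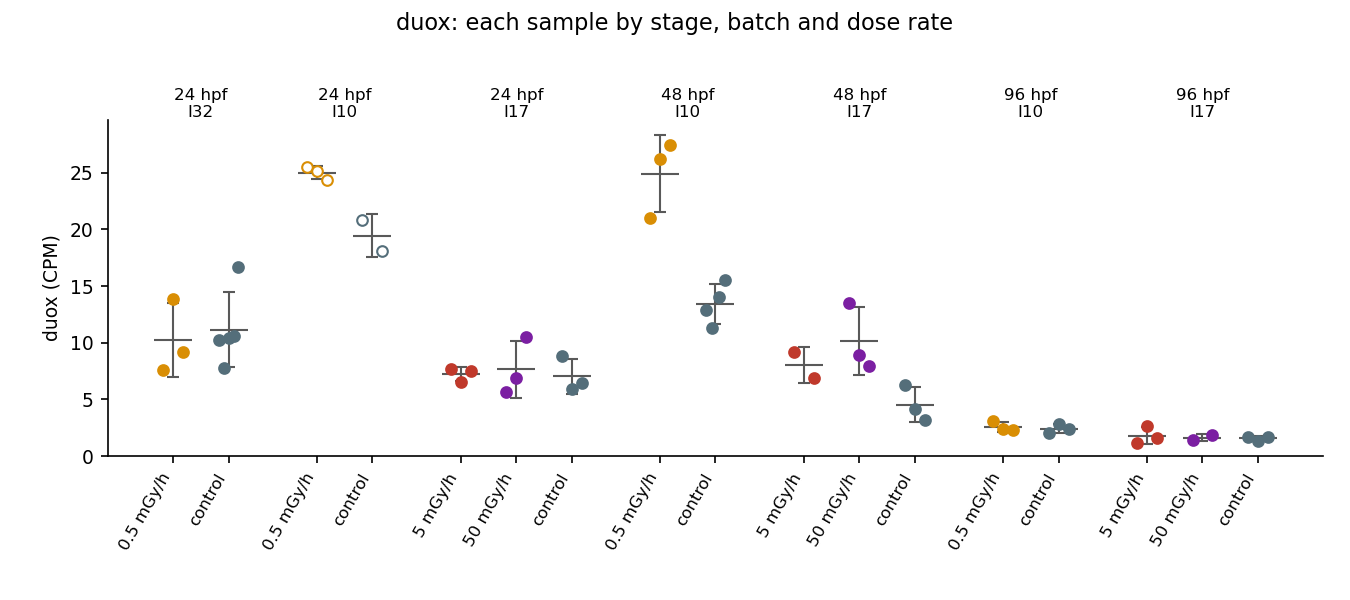
Duox in CPM for each sample, by stage, irradiation batch and dose rate. Points are samples, horizontal marks and bars are the mean and SD of a group, and open points are the 5 samples of batch I10 at 24 hpf that were described separately. At 48 hpf the exposed samples in I10 lie at 21.1 to 27.5 CPM, above their controls, and these values selected duox. In I17 the kept exposed samples lie at 6.87 to 13.5 CPM, above their controls at 3.17 to 6.24 CPM. The 5 mGy/h sample set aside there was at 5.64 CPM, within the range of the controls. At 96 hpf the exposed samples span 1.12 to 3.07 CPM and overlap the controls.

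At 24 hpf duox did not separate exposed from control samples. In batch I32 it was at 7.58, 13.9 and 9.20 CPM in samples at 0.5 mGy/h and between 7.75 and 16.7 CPM in 5 controls, with a median of 10.5 CPM. In batch I17 it averaged 7.24 ± 0.59 CPM at 5 mGy/h and 7.66 ± 2.50 CPM at 50 mGy/h, against 7.04 ± 1.53 CPM in controls (SD, n = 3 each). The groups overlapped in all 3 comparisons. The log2 fold changes were -0.11, 0.05 and 0.14 at 0.5, 5 and 50 mGy/h, with SE of 0.20 to 0.22. The separate samples of batch I10 at 24 hpf were higher in level, at 25.5, 25.2 and 24.3 CPM at 0.5 mGy/h against 20.8 and 18.1 CPM in the 2 controls. There the exposed samples lay above the controls, with a log2 fold change of 0.38 and an adjusted p of 0.439 in edgeR. At 96 hpf duox was low everywhere, and its log2 fold changes of 0.10, 0.19 and 0.05 at 0.5, 5 and 50 mGy/h had SE of 0.23 to 0.34.

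Whether the duox response differed between stages was tested within batch I17 with an interaction term. At 50 mGy/h the log2 fold change was higher by 1.06 ± 0.38 (SE) at 48 hpf than at 24 hpf, and lower by 1.18 ± 0.44 (SE) at 96 hpf than at 48 hpf. The adjusted p-values of 0.112 and 0.0909 in edgeR did not pass. At 5 mGy/h the 48 hpf effect exceeded the 24 hpf effect by 0.78 ± 0.40 (SE), which also did not pass, with an adjusted p of 0.269 in edgeR.

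Duox also changed with stage in the absence of exposure. In I17 controls it was at 7.04 ± 1.53 CPM at 24 hpf, 4.52 ± 1.57 CPM at 48 hpf and 1.58 ± 0.23 CPM at 96 hpf (SD, n = 3 each). The step from 24 to 48 hpf was a log2 change of -0.68 and did not pass (adjusted p of 0.0218 in edgeR), although it was called without control replicate 5 at 48 hpf, at -0.96. The step from 48 to 96 hpf was called, at -1.49 ± 0.26 (SE, adjusted p of 0.000120). In I10 controls duox fell by 2.48 on the log2 scale over the same step. Controls also differed between batches: duox was 3.07-fold higher in I10 than in I17 controls at 48 hpf (log2 difference 1.62). The 48 hpf controls of I10 belong to the comparison that selected duox, so this value and the fall in I10 are given as descriptions. At 24 hpf I32 controls were 1.55-fold above I17 controls, and at 96 hpf I10 controls were 1.56-fold above I17 controls, with adjusted p-values of 0.0225 and 0.0358 that did not pass. Among all genes, the batches of controls differed in 8.37% of genes at 24 hpf, 13.7% at 48 hpf and 18.5% at 96 hpf.

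The duox maturation factor gene duoxa, found under the symbol DUOXA1 (ENSDARG00000078962), is needed for dual oxidase to leave the endoplasmic reticulum and reach the cell surface. It belongs to the list of other thyroid axis genes and was named because it passed the test. At 48 hpf in batch I17 it was at 1.23 and 0.831 CPM at 5 mGy/h and at 1.98, 0.867 and 1.48 CPM at 50 mGy/h, against 0.0931, 0.267 and 0.161 CPM in controls. The controls held only 3, 11 and 6 reads, while the kept exposed samples held 35 to 82 reads. The 5 mGy/h sample set aside as an outlier held 21 reads, at 0.457 CPM. It lay below all kept exposed samples and above all controls. Duoxa rose at 50 mGy/h by 3.02 ± 0.46 (SE) on the log2 scale, 8.12-fold, with an adjusted p of 0.00463 in edgeR. At 5 mGy/h the log2 fold change was 2.50 ± 0.50 (SE) with an adjusted p of 0.0355, which did not pass. The call at 50 mGy/h was lost, with adjusted p-values of 0.0209 to 0.0323, when replicate 5 of the 50 mGy/h group or any of the 3 controls was left out, while the value stayed between 2.74 and 3.47.

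In batch I10 at 48 hpf duoxa was at 1.12, 1.77 and 1.93 CPM in samples at 0.5 mGy/h and at 1.52, 0.840, 0.828 and 1.47 CPM in controls, and these overlapped. Its controls were 6.57-fold above those of I17 at this stage (adjusted p of 0.000401 in edgeR). In I17 controls duoxa fell by 4.27 on the log2 scale between 24 and 48 hpf, and in I10 controls by 2.49 between 48 and 96 hpf, both called. Between 48 and 96 hpf in I17 controls its log2 change was 0.30, with an adjusted p of 0.619 in edgeR.

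**Figure D2:**
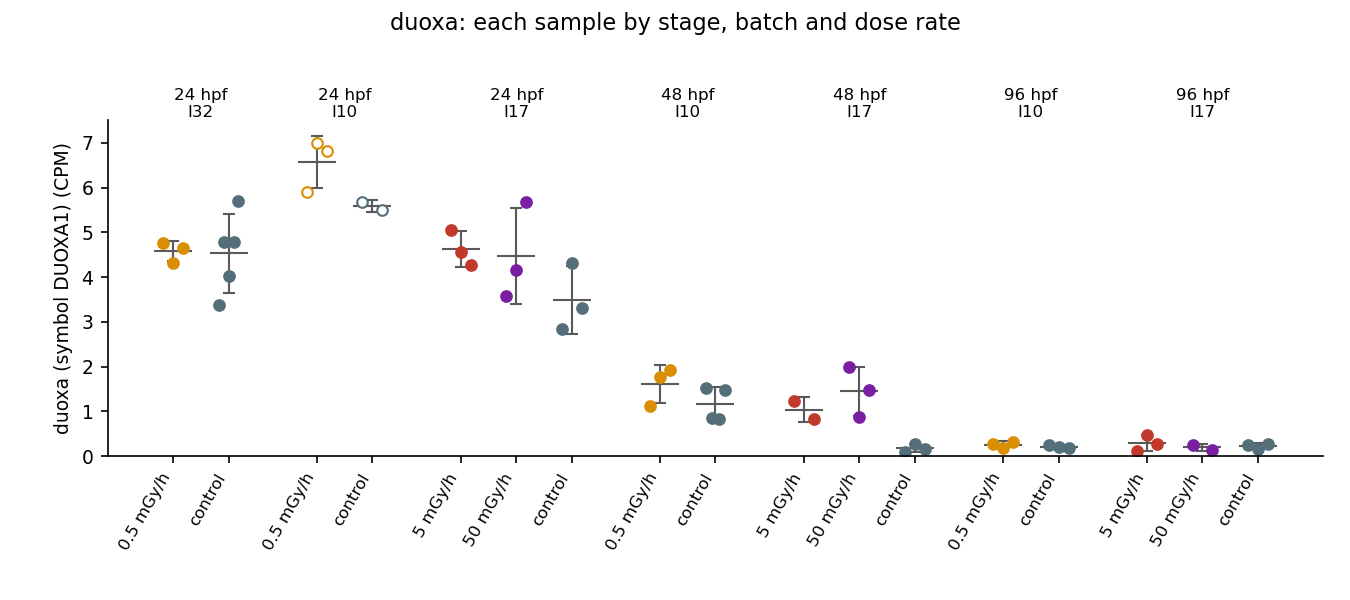
Duoxa, found under the symbol DUOXA1, in CPM for each sample, arranged as for duox with means and SD. At 48 hpf in batch I17 the kept exposed samples lie at 0.831 to 1.98 CPM and the controls at 0.0931 to 0.267 CPM. The 5 mGy/h sample set aside there was at 0.457 CPM. At 24 hpf the kept samples of all groups lie between 2.83 and 5.70 CPM.

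Mean levels of duox and duoxa were lower at 48 than at 24 hpf in I17 controls. The position of each sample along the normal 24 to 48 hpf change was therefore measured. It is the projection of a sample on the change between the 24 and 48 hpf controls of another batch, over genes that changed at least 2-fold, without the members, and is given in percent of that change (the 24 hpf controls of I10 are the 2 separate samples). At 48 hpf in batch I17 it was 86.0 to 90.0% at 5 mGy/h and 78.3 to 93.5% at 50 mGy/h, against 112 to 115% in controls. At 48 hpf in batch I10 it was 63.5 to 66.2% at 0.5 mGy/h, against 73.5 to 83.3% in controls. At 24 hpf in batch I17 it was 1.56 to 5.93% at 5 mGy/h and -3.10 to 6.73% at 50 mGy/h, against 24.4 to 25.3% in controls. In each of these comparisons every exposed sample was at an earlier position than every control. In batch I32 at 24 hpf the positions were 1.94 to 4.09% at 0.5 mGy/h and 3.94 to 7.97% in controls, and these overlapped. Along the 48 to 96 hpf change, samples of I17 at 96 hpf were at 92.3 to 102% with 5 mGy/h and 92.6 to 97.2% with 50 mGy/h, against 104 to 109% in controls, while in I10 exposed samples were at 85.0 to 92.0%, against 83.6 to 84.5% in controls. The part of this difference in position in the differences of duox, duoxa, thrb and the other genes described below was not tested.

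**Figure D3:**
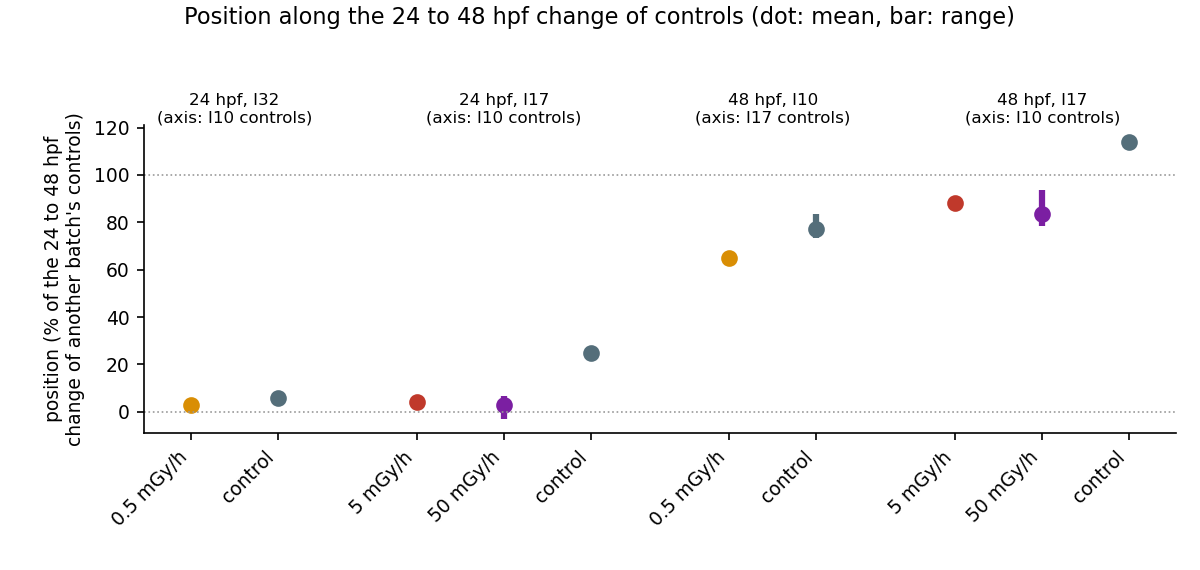
Position of the samples along the change from 24 to 48 hpf in controls of another batch, in percent, with 0 at the 24 hpf and 100 at the 48 hpf controls of that batch. Dots are group means and bars run from the lowest to the highest sample. At 48 hpf the exposed groups in I17 lie at 78.3 to 93.5% and their controls at 112 to 115%.

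Markers of the epithelia that can express dual oxidase were also read at 48 hpf. The summed level of 6 skin epidermis markers was 6045 to 6593 CPM at 5 mGy/h and 6524 to 7531 CPM at 50 mGy/h, against 4248 to 5662 CPM in I17 controls. Most of this sum is krt4, a keratin gene, with means of 5504 and 6119 CPM at 5 and 50 mGy/h, against 3935 CPM in controls. The only one of the 6 called was krt17, another keratin gene, which rose by 1.19 on the log2 scale at 50 mGy/h and lost its call in 4 of 6 cases when a sample was left out. Keratin gene krt5 had means of 515.1 and 593.4 CPM at 5 and 50 mGy/h, against 635.4 CPM in controls, and tp63, a transcription factor gene of basal epidermis, had means of 25.8 and 27.0 CPM, against 25.8 CPM. Epcam had means of 121.0 and 157.6 CPM, against 98.59 CPM, and cldne of 26.68 and 35.91 CPM, against 26.11 CPM. For epcam the 50 mGy/h samples, at 142.2 to 166.6 CPM, lay above the controls, at 84.19 to 123.0 CPM. In batch I10 the sum was 6772 to 8458 CPM at 0.5 mGy/h and 6258 to 9073 CPM in controls.

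The summed level of 5 matched intestinal markers was 537.8 to 619.9 CPM at 5 mGy/h and 595.9 to 626.4 CPM at 50 mGy/h, against 470.5 to 499.3 CPM in I17 controls, with 0 of the 5 called in edgeR and 3 at an unadjusted p under 0.05 for each dose rate. Over all 19802 genes 3246 and 4928 had an unadjusted p under 0.05 at 5 and 50 mGy/h. Most of this sum is apoa4b.1, an apolipoprotein gene, with means of 459.7 and 487.9 CPM, against 412.6 CPM in controls. Fabp2, a fatty acid binding protein gene, had means of 102.4 and 103.2 CPM, against 60.25 CPM in controls, without overlap. Its adjusted p-values of 0.0459 and 0.0115 in edgeR did not pass. Mttp had means of 14.68 and 14.61 CPM, against 11.52 CPM. Another pair of markers had lower means in exposed samples: vil1, which encodes an actin-binding protein of the brush border, was at 1.38 and 1.26 CPM, against 2.49 CPM, and cdx1b, an intestinal transcription factor gene, at 0.619 and 1.09 CPM, against 1.64 CPM. In batch I10 the sum was 554.3 to 602.2 CPM at 0.5 mGy/h and 552.0 to 721.0 CPM in controls, with vil1 at 0.912 CPM against 1.85 CPM and cdx1b at 0.996 CPM against 2.06 CPM. Fabp2 went the other way there, at 89.55 to 110.2 CPM at 0.5 mGy/h, against 56.95 to 79.76 CPM in controls. Its adjusted p of 0.0459 in edgeR did not pass. Mttp had a mean of 19.38 CPM at 0.5 mGy/h, against 19.73 CPM in controls. Goblet cell and thyroid follicle markers were listed too. At 48 hpf in I17 the goblet marker agr2 had means of 109.4 and 105.5 CPM at 5 and 50 mGy/h, against 106.7 CPM in controls. Muc5.1 had means of 20.84 and 20.94 CPM, against 26.01 CPM, and the follicle marker pax8 of 18.05 and 18.88 CPM, against 30.65 CPM. The part of these tissues in the duox values was not tested, and in whole embryos fewer cells of a type and less RNA per cell cannot be told apart.

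At 24 hpf, where duox overlapped between the groups, the epidermis markers were called higher for 3 of 6 genes with 5 mGy/h and 4 of 6 with 50 mGy/h, beside 9.89% and 5.88% of all genes called in either direction. Krt17 rose by 2.60 and 2.57 on the log2 scale, krt5 by 2.14 and 2.02 and krt4 by 1.38 and 1.19, while cldne, which encodes a claudin of tight junctions, rose by 0.99 with 50 mGy/h. Of the 5 intestinal markers 1 was called for each dose rate, fabp2, which encodes a fatty acid binding protein and rose by 0.84 and 1.15. For fabp2 unexposed I32 controls of this stage were 1.615-fold above I17 controls (adjusted p of 0.00019 in edgeR). Controls also lay higher in I32 than in I17 for krt5, at 601.8 to 683.3 against 221.3 to 337.4 CPM. The same held for krt17, at 210.0 to 288.3 against 130.6 to 190.9 CPM, and cldne, at 70.68 to 79.33 against 46.82 to 57.61 CPM. For krt4 they overlapped, at 3326 to 3915 against 3086 to 5196 CPM. Leaving out any 1 sample ended the fabp2 call for 5 mGy/h, and the calls of krt4 were lost in 4 of 6 cases for each dose rate, while those of krt17 and krt5 at this stage held in all 6 cases. For 50 mGy/h the calls of cldne and fabp2 were lost in 2 of 6 cases each. In I17 controls the intestinal markers did not share 1 course with stage. Means at 24, 48 and 96 hpf were 123.0, 60.25 and 86.69 CPM for fabp2 and 521.8, 412.6 and 363.0 CPM for apoa4b.1. They were 0.725, 2.49 and 369.4 CPM for vil1, 0.408, 1.64 and 7.22 CPM for cdx1b, and 17.2, 11.5 and 30.5 CPM for mttp. Which tissue the RNA of these markers came from was not tested.

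The thyroid hormone receptor gene thrb (ENSDARG00000021163) was the only member that edgeR called in an exposure comparison that had not selected it. At 24 hpf in batch I17 it was at 1.41, 1.57 and 0.903 CPM at 5 mGy/h and at 2.39, 1.71 and 0.866 CPM at 50 mGy/h, against 6.53, 3.38 and 4.78 CPM in controls. All exposed samples were below all controls. Thrb fell by 1.90 ± 0.34 (SE) on the log2 scale at 5 mGy/h, to 0.267-fold of the control level, and by 1.54 ± 0.33 (SE) at 50 mGy/h, with adjusted p-values of 0.00236 and 0.00680 in edgeR. It was the only one of 6 members tested that was called in either comparison, where 9.89% and 5.88% of 18358 genes were called.

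Both calls rest on small groups. At 5 mGy/h the log2 fold change lay between -2.08 and -1.69 when single samples were left out, and the adjusted p rose to between 0.0108 and 0.0188, past the threshold, without replicate 2 or 4 of the exposed group or without control 1 or 4. At 50 mGy/h it lay between -1.90 and -1.25, and the call was lost without replicate 3 or 4 of the exposed group or without control 1 or 4.

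At 0.5 mGy/h in batch I32 at 24 hpf thrb was at 2.48, 2.63 and 2.82 CPM in exposed samples, against 3.91 to 6.05 CPM in 5 controls with a median of 4.62 CPM. The groups did not overlap, and the log2 fold change of -0.87 ± 0.16 (SE) did not pass, with an adjusted p of 0.0162 in edgeR and 0.0694% of 18721 genes called. It was called without control replicate 2, at -0.93 with an adjusted p of 0.00407. DESeq2 called it, at -0.86 with an adjusted p of 0.000333. The 3 exposed samples set aside as outliers were at 7.80, 5.88 and 4.15 CPM and the control set aside was at 3.07 CPM. With these samples included the log2 fold change was -0.07, with an adjusted p of 0.951. The separate samples of batch I10 were at 6.67, 4.16 and 4.04 CPM at 0.5 mGy/h against 7.47 and 5.33 CPM in controls, and overlapped.

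At 48 hpf thrb was at 13.9, 12.2 and 15.01 CPM at 0.5 mGy/h in I10, against 16.2, 21.98, 22.6 and 15.4 CPM in controls. In I17 it was at 2.87 and 7.18 CPM at 5 mGy/h and 5.96, 8.03 and 3.72 CPM at 50 mGy/h, against 7.91, 11.1 and 10.7 CPM in controls. The groups did not overlap at 0.5 and 5 mGy/h and overlapped at 50 mGy/h. The sample set aside from the 5 mGy/h group was at 16.7 CPM, above all controls, and with it the log2 fold change at 5 mGy/h was -0.12. Without it, the log2 fold changes of -0.47, -0.95 and -0.71 had adjusted p-values of 0.0882, 0.218 and 0.197 in edgeR.

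At 96 hpf the values lay on the other side of the controls. In I17 thrb was at 5.55, 2.33 and 2.12 CPM at 5 mGy/h and at 5.43 and 3.44 CPM at 50 mGy/h, against 1.66, 1.73 and 2.01 CPM in controls. Replicate 10 was the highest sample of either exposed group. The 50 mGy/h sample set aside as an outlier, which is not in the values that follow, was at 2.43 CPM. It lay below both kept samples of its group and above all controls. The log2 fold changes of 0.92 ± 0.35 (SE) and 1.33 ± 0.37 (SE) had adjusted p-values of 0.169 and 0.0489 in edgeR and did not pass, while DESeq2 called the value at 50 mGy/h (adjusted p of 0.00844). At 0.5 mGy/h in I10 thrb was at 1.23, 2.56 and 3.85 CPM against 3.67, 2.36 and 4.80 CPM in controls, which overlapped.

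The change of the thrb effect with stage was itself past the threshold. The log2 fold change at 96 hpf exceeded that at 24 hpf by 2.80 ± 0.57 (SE) at 5 mGy/h and by 2.85 ± 0.58 (SE) at 50 mGy/h, with adjusted p-values of 0.00172 and 0.00180 in edgeR. Among 21470 genes these differences were called for 12% in the 5 mGy/h case and 9.14% in the 50 mGy/h case. Thrb was the only one of 7 members called in either. Between 96 and 48 hpf the differences of 1.85 and 2.01 did not pass, with adjusted p-values of 0.0647 and 0.0236 in edgeR, where 0.862% and 2.67% of genes were called. Between 48 and 24 hpf 0.778% of genes at 5 mGy/h and 1.28% at 50 mGy/h were called and 0 members in edgeR, with 1 and 2 members at an unadjusted p under 0.05. Over all 21470 genes 4482 and 4551 had an unadjusted p under 0.05. At 0.5 mGy/h, between 96 and 48 hpf, 0.0% of 20887 genes were called in edgeR, with 2474 at an unadjusted p under 0.05.

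Thrb in controls was high at 48 hpf. It rose 1.97-fold between 24 and 48 hpf in I17 (log2 change 0.98, adjusted p of 0.00115 in edgeR) and then fell by 2.43 on the log2 scale to 96 hpf, as it fell by 2.38 in I10. Controls of I10 were above those of I17 at 48 hpf by 0.98 and at 96 hpf by 1.05 on the log2 scale, both called. In I17 every exposed sample held an earlier position along the stage change than every control at 24 and at 96 hpf. The part of this in the thrb differences was not tested.

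**Figure D4:**
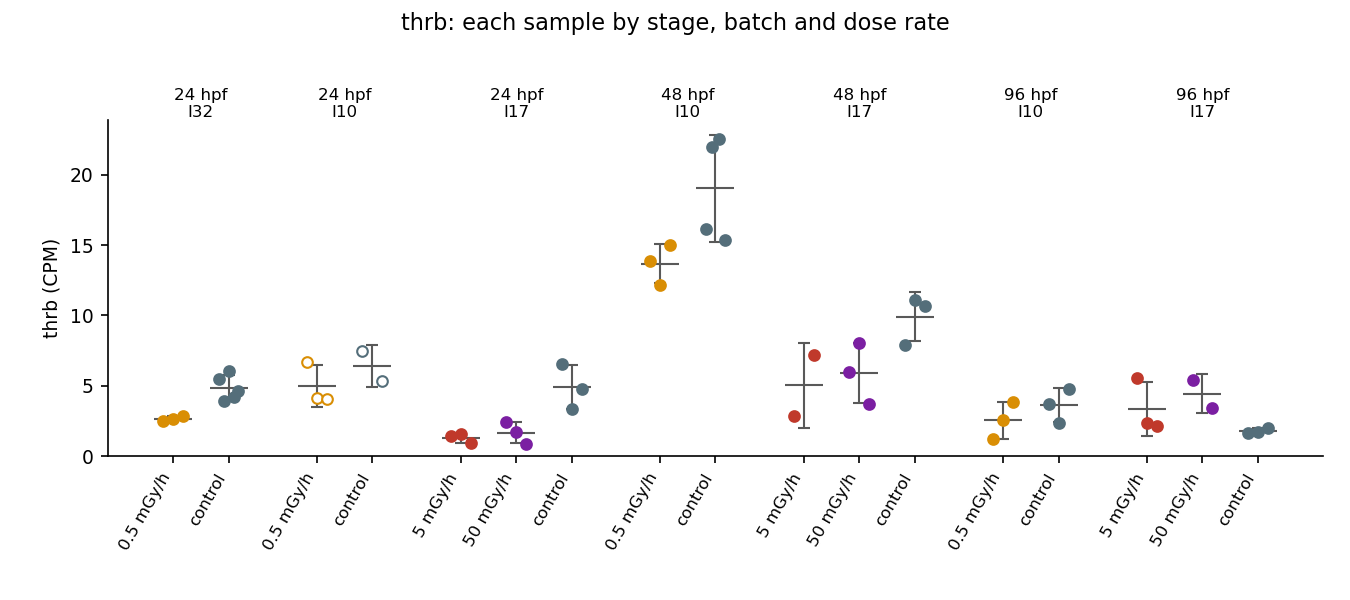
Thrb in CPM for each sample, by stage, irradiation batch and dose rate, with the mean and SD of each group and open points for the separate samples of batch I10 at 24 hpf. In I17 at 24 hpf the exposed samples lie at 0.866 to 2.39 CPM, below controls at 3.38 to 6.53 CPM, and at 96 hpf at 2.12 to 5.55 CPM, above controls at 1.66 to 2.01 CPM.

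Of the 2 genes under the symbol THRA, which encode the other class of nuclear thyroid hormone receptor, ENSDARG00000000151 showed log2 fold changes between -0.36 and 0.25 over the 9 exposure comparisons. ENSDARG00000052654 was at 2.53 and 2.61 CPM at 5 mGy/h and at 1.93 to 3.02 CPM at 50 mGy/h, against 3.90 to 4.56 CPM in controls at 48 hpf in I17. These groups did not overlap, and the log2 fold changes of -0.68 and -0.79 had adjusted p-values of 0.188 and 0.0481 in edgeR, short of the threshold. This gene rose with stage in controls, 2.73-fold between 24 and 48 hpf in I17.

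Of the deiodinases, dio1 (ENSDARG00000042112) did not pass edgeR's test in any exposure comparison. At 96 hpf in I17 it was at 3.97, 4.34 and 5.14 CPM at 5 mGy/h and at 4.96 and 5.66 CPM at 50 mGy/h, against 8.01, 7.52 and 7.42 CPM in controls. The exposed samples were all below the controls. The log2 fold changes of -0.76 ± 0.15 (SE) and -0.52 ± 0.16 (SE) had adjusted p-values of 0.0281 and 0.0647 in edgeR and did not pass, while DESeq2 called the value at 5 mGy/h, at -0.78 with an adjusted p of 0.000842. At 24 and 48 hpf dio1 was low, at 0.132 to 1.09 CPM in the kept samples, and its log2 fold changes in I17 ran from -1.02 to -0.23.

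The inactivating deiodinase gene dio3b (ENSDARG00000095767) did not pass in edgeR either. At 96 hpf in I17 it was at 7.75, 4.89 and 4.20 CPM at 5 mGy/h and at 6.78 and 6.60 CPM at 50 mGy/h, against 3.50, 4.03 and 3.36 CPM in controls. These exposed samples were all above the controls, with replicate 10 highest in both exposed groups, as for thrb. The 50 mGy/h sample set aside as an outlier was at 2.51 CPM, below all controls, and with it the log2 fold change at 50 mGy/h was 0.55, with an adjusted p of 0.377 in edgeR. The log2 fold changes of 0.65 ± 0.21 (SE) and 0.89 ± 0.23 (SE) had adjusted p-values of 0.139 and 0.0392 in edgeR and did not pass. DESeq2 called the value at 50 mGy/h, with an adjusted p of 0.00771. At 24 and 48 hpf the log2 fold changes of dio3b lay between -0.36 and 0.14.

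The activating deiodinase gene dio2 (ENSDARG00000094857) had log2 fold changes between -0.84 and -0.17 in the 6 comparisons at 24 and 48 hpf, and between -0.12 and 0.28 at 96 hpf. At 48 hpf in I10 it was at 0.944, 1.19 and 1.22 CPM at 0.5 mGy/h, against 1.62, 1.45, 1.85 and 1.49 CPM in controls. The groups did not overlap, and the log2 fold change of -0.50 ± 0.20 (SE) did not pass, with an adjusted p of 0.186 in edgeR.

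Tg (ENSDARG00000020084) rose over each stage step in controls, 4.36-fold between 24 and 48 hpf and 7.60-fold between 48 and 96 hpf in I17, and 7.31-fold between 48 and 96 hpf in I10. At 48 hpf in I17 it was at 2.49 and 2.19 CPM at 5 mGy/h and at 2.22, 1.71 and 1.87 CPM at 50 mGy/h, against 3.51, 2.70 and 3.04 CPM in controls. The exposed samples were below the controls, and the log2 fold changes of -0.39 ± 0.24 (SE) and -0.64 ± 0.21 (SE) had adjusted p-values of 0.468 and 0.0861 in edgeR. At 96 hpf tg had log2 fold changes of 0.27, -0.07 and -0.09 at 0.5, 5 and 50 mGy/h.

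The iodide symporter gene slc5a5 and the thyrotropin receptor gene tshr were near the limit of counting in whole embryos. The kept samples held 0 to 23 reads of slc5a5 and 0 to 14 reads of tshr. Tshr passed the filter on low counts in none of the comparisons, and slc5a5 in 4 of the 9 exposure comparisons. At 48 hpf slc5a5 had 0 and 1 reads in the 5 mGy/h samples and 9, 7 and 4 reads in the 50 mGy/h samples, against 7, 6 and 8 reads in I17 controls. In I10 it had 2, 3 and 2 reads at 0.5 mGy/h and 4, 12, 13 and 4 reads in controls. With no filter on low counts, the log2 fold change of slc5a5 at 48 hpf was -3.65 at 5 mGy/h in edgeR, with an unadjusted p of 0.00655 and an adjusted p of 0.123. At 0.5 mGy/h it was -1.52 in edgeR, with an unadjusted p of 0.0475 and an adjusted p of 0.290. Neither passed, and the values rest on few reads.

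**Figure D5:**
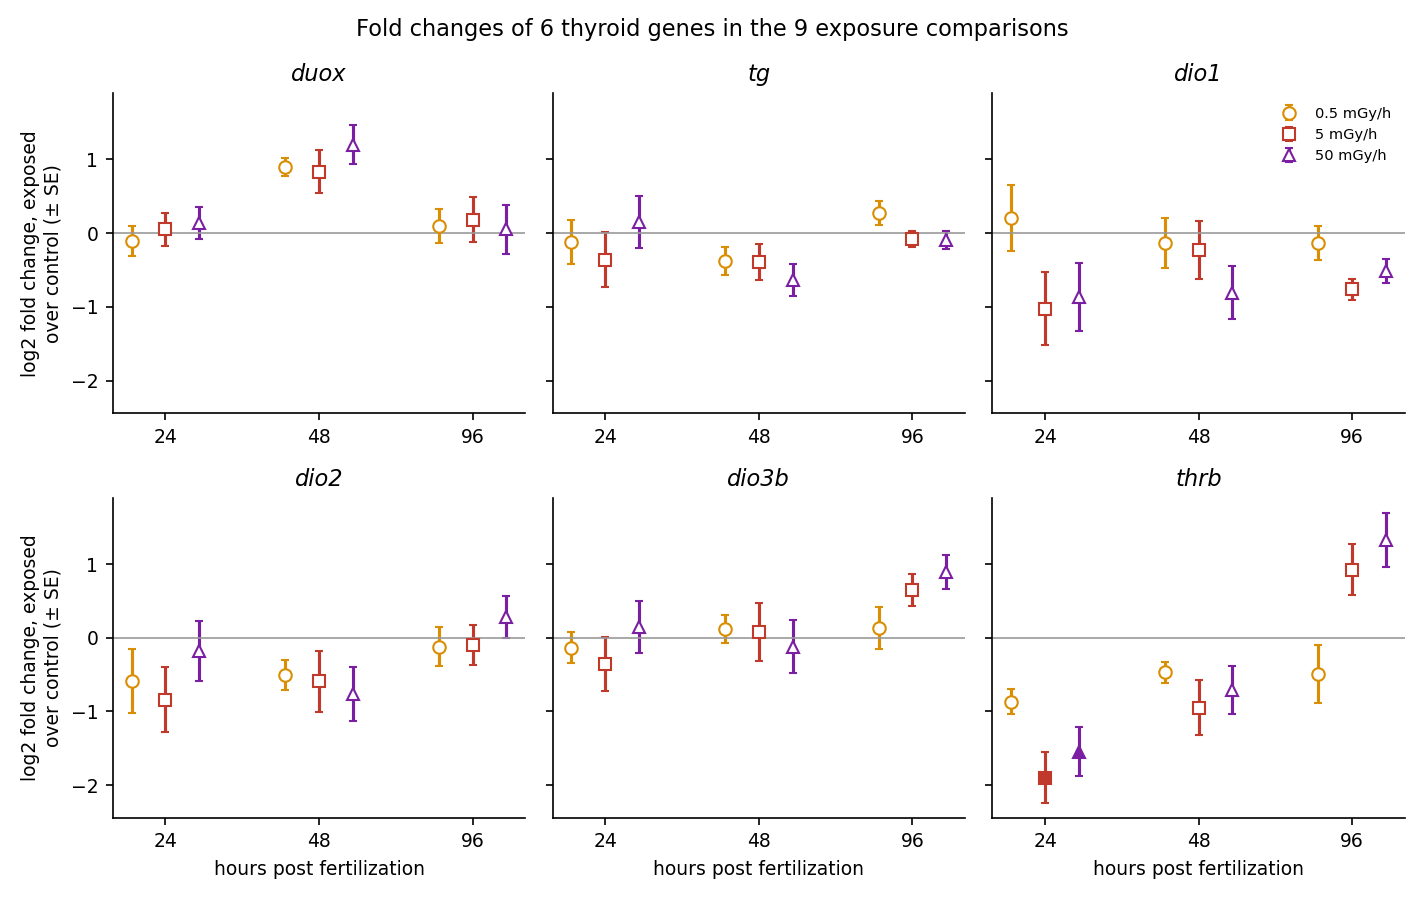
Log2 fold changes of exposed over control samples with their SE for duox, tg, dio1, dio2, dio3b and thrb at 24, 48 and 96 hpf. Circles, squares and triangles stand for 0.5, 5 and 50 mGy/h. Filled symbols passed the threshold in edgeR, which only thrb at 24 hpf did, at -1.90 and -1.54 (the value that selected duox, 0.90 at 48 hpf and 0.5 mGy/h, is drawn open since it carries no test).

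Over all members, 0 of 7 tested were called at 24 hpf and 0.5 mGy/h in edgeR, with 1 at an unadjusted p under 0.05 and 1 called by DESeq2. There 0.0694% of 18721 genes were called, and 2513 had an unadjusted p under 0.05. At 48 hpf 0 of 6 were called at 5 mGy/h and 0 of 6 at 50 mGy/h in edgeR, with 2 and 4 at an unadjusted p under 0.05 and 0 and 1 called by DESeq2. Of 19802 genes 0.157% and 1.53% were called in edgeR, and 3246 and 4928 had an unadjusted p under 0.05. At 96 hpf 0 of 7 were called at each dose rate in edgeR, with 0, 3 and 3 at an unadjusted p under 0.05 at 0.5, 5 and 50 mGy/h and 0, 1 and 2 called by DESeq2. The background at 96 hpf was 0.0%, 0.275% and 0.162% of genes, and for 0.5 mGy/h the unadjusted p was under 0.05 in 4097 of 19708 genes, with 31 called by DESeq2. For 5 and 50 mGy/h the unadjusted p was under 0.05 in 4334 and 5939 of 20378 genes. Across the members the median log2 fold change was -0.60 for 5 mGy/h at 24 hpf and -0.68 for 50 mGy/h at 48 hpf, beside medians of -0.06 and 0.02 over all genes tested. In the other 7 comparisons it lay between -0.38 and 0.10. Comparing 50 with 5 mGy/h, 0 members were called at any stage in edgeR and 0 had an unadjusted p under 0.05, and 0.0% of genes were called at 24 hpf (1146 at an unadjusted p under 0.05) and 0.0589% at 96 hpf.

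By stage in the controls, 3 to 6 of the 7 members tested were called. Between 24 and 48 hpf in I17 3 of 7 members rose, tg, thrb and dio2, where 32.5% of all genes were called. Between 48 and 96 hpf 6 of 7 were called in I17, where 43.3% of genes were called: tg, dio1 and dio3b rose and duox, thrb and dio2 fell. In I10, where 45.6% of genes were called over this step, 4 of 7 were called: tg and dio1 rose and duox and thrb fell. For duox this step uses the 48 hpf controls of the comparison that selected it, so its call in I10 is no separate test. Dio1 rose 9.83-fold in I17 and 9.91-fold in I10. Dio2 fell by 1.04 on the log2 scale in I17 and had a log2 change of 0.01 in I10. Without I17 control replicate 8 at 48 hpf the calls of dio2 and dio3b were lost, at -0.90 and 1.19. In I10 dio3b, at 0.63, was called only without control replicate 11 at 96 hpf, at 0.89.

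Other genes of the thyroid axis were read from a list of 39, of which 26 were matched and 21 to 25 were tested. At 24 hpf and 5 mGy/h 4 of 21 rose and 0 fell in edgeR, beside 9.89% of all genes called in either direction, with a list median of 0.24 beside -0.06 over all genes. These were trh, the precursor of thyrotropin-releasing hormone, with a log2 fold change of 0.97, the thyroid transcription factor genes pax8 (1.31) and hhex (1.05), and slc16a10 (1.22), which encodes a transporter of aromatic amino acids and thyroid hormone. Pax8 was at 17.6, 25.7 and 29.6 CPM at 5 mGy/h and 16.6, 16.7 and 28.1 CPM at 50 mGy/h, against 7.25, 12.8 and 9.41 CPM in controls. All exposed samples were above all controls. Pax8 is also expressed in the developing kidney and ear. Of the list, nkx2.1 had means of 10.64 CPM at 5 mGy/h and 9.96 CPM in controls, and foxe1 of 0.195 and 0.168 CPM. Both overlapped. Foxe3 had means of 8.24 and 5.06 CPM, without overlap, and was not called. The member tg had a log2 fold change of -0.36 in this comparison and was not called. At 24 hpf unexposed I32 controls were 1.54-fold above I17 controls for pax8 and 1.71-fold for trh. Both differences were called, with adjusted p-values of 0.00557 and 0.00345 in edgeR. For hhex and slc16a10 the ratios of 1.015 and 1.11 were not called. Slc16a10 was at 60.5, 69.5 and 66.6 CPM at 5 mGy/h and 48.3, 54.2 and 74.9 CPM at 50 mGy/h, against 21.3, 34.6 and 28.7 CPM in controls, and it was the 1 of 21 list genes called for the 50 mGy/h dose rate, where 5.88% of all genes were called and its call was lost in 2 of 6 cases when a sample was left out. Of 24 list genes tested in 48 hpf embryos under 50 mGy/h, 1 was called, duoxa, beside 1.53% of all genes. In the other 6 comparisons 0 were called in edgeR, with 2 to 9 at an unadjusted p under 0.05, beside 2513 to 5939 of all genes. Uncalled list genes went both ways without overlap for 50 mGy/h at 96 hpf in I17. Iyd was at 5.18 to 6.03 CPM, against 8.77 to 11.3 CPM in controls, and ttr at 10.8 to 12.6 CPM, against 17.6 to 21.8 CPM. Rxrbb was at 4.50 to 4.56 CPM, against 2.06 to 3.03 CPM in controls.

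Leaving out single samples lost the 5 mGy/h call of each of these genes in 4 or 5 of 6 cases, with ranges of 0.80 to 1.24 for trh, 1.09 to 1.57 for pax8, 0.80 to 1.37 for hhex and 1.01 to 1.42 for slc16a10.

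Among 15 genes of NADPH oxidases and peroxidases, of which 12 were matched, noxo1a alone was called. This gene, which encodes an organizer of the NADPH oxidase Nox1, rose at 24 hpf by 1.25 on the log2 scale at both 5 and 50 mGy/h, where 9.89% and 5.88% of all genes were called (adjusted p-values of 0.000677 and 0.000757 in edgeR). It was at 11.3, 14.5 and 11.8 CPM at 5 mGy/h and 11.6, 10.8 and 14.8 CPM at 50 mGy/h, against 5.19, 5.89 and 4.78 CPM in controls, which did not overlap. Controls differed between batches here too. Those of I32 at 24 hpf were at 11.16 to 18.42 CPM, 2.86-fold above those of I17 (adjusted p of 1.0e-06 in edgeR). The separate I10 controls were at 12.6 and 8.24 CPM.

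The genes whose pattern was most like that of duox were found over the means of 15 groups among 13680 other genes with an average of at least 1 on the log2 CPM scale. They were zgc:171775 (Pearson r of 0.977), ACVR2B (0.967), si:dkey-122a22.2 (0.961), gch2 (0.961) and YEATS4 (0.956). On this measure tg had an r of -0.821, dio3b of -0.637 and thrb of 0.471. After the mean of each stage and batch was subtracted from the 46 samples, the nearest genes were cbx2 (0.754), SCUBE2 (0.740), arhgap46a (0.716), si:dkey-82f1.1 (0.713) and dtnba (0.704). These values describe the samples, which share batches and stages and include those of the comparison that selected duox.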

How the data were processed

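RNA was sequenced from 58 pools of zebrafish embryos or larvae. The authors trimmed the reads, aligned them with STAR to GRCz11 with an Ensembl annotation, and deposited counts of reads per gene with and without regard to strand. The stranded counts were used. Of all reads in these tables, 22.5 to 34.6% were on no gene and were left out. Comparisons were made within 1 stage and 1 batch with edgeR 4.0.16 in R 4.3.3 (filterByExpr, TMM, quasi-likelihood test, Benjamini-Hochberg adjustment over all genes tested). A call needed at least a 1.5-fold change and an adjusted p under 0.01, thresholds that the study applied to DESeq2 results. An interaction needed only the adjusted p. CPM used 1 TMM scaling over all samples. Figures were drawn with matplotlib 3.10.9. Symbols came from a names table in which 28988 of 32057 identifiers have one. No sequences are shown, and coordinates were not used here. In another assembly, GRCz12tu, 1 gene each overlaps tg, slc5a5, dio1 and thrb.

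The members and lists were chosen with earlier results of these data known. Named were all members, each list gene called in at least 1 exposure comparison, the 5 genes most like duox on each of 2 measures, and the 2 genes next to the threshold that chose duox. Some uncalled list genes and markers are given beside these. The position along the stage change was added after seeing the data. Alternatives were DESeq2 1.42.0, its size factors, no filter on low counts, counts without strand, an adjusted p of 0.05, all samples, separate fits for each dose rate, a replicate block, the other batch at 24 hpf, and leaving out each sample. The tests were checked on simulated data. SE values come from the edgeR fits and include the spread between pools. The CPM limit for a gene without reads covers counting error only.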

Additional observations from a re-analysis of the deposited data

Results flagged for a closer look

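Thrb differed between stages in its response to irradiation within batch I17. The log2 fold change in larvae of 96 hpf minus that in embryos of 24 hpf was 2.80 for the 5 mGy/h dose rate and 2.85 for the 50 mGy/h dose rate, with adjusted p-values of 0.00172 and 0.00180 in edgeR. In I17 every exposed sample was below every control at 24 hpf and above every control at 96 hpf. Both dose rates share their controls. The difference between stages was not refitted without single samples or under the other settings. When single samples were left out, the thrb calls at 24 hpf were lost in 4 of 6 cases for each dose rate. The log2 fold change at 96 hpf then ranged from 0.33 to 1.16 at 5 mGy/h and from 0.96 to 1.60 at 50 mGy/h. The part of stage position in the thrb difference was not tested.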

How the results depend on the processing

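The number of members called depended on the test. At 24 hpf and 0.5 mGy/h it was 1 (thrb) with DESeq2, with no filter on low counts or at an adjusted p of 0.05, against 0 as reported. For 50 mGy/h at 48 hpf these alternatives each gave 1 (duox). In 96 hpf larvae they gave 1 (dio1) for 5 mGy/h and 2 (dio3b and thrb) for 50 mGy/h, where separate fits for each dose rate also gave 2. For 50 mGy/h at 24 hpf separate fits gave 0, with thrb at -1.55 (adjusted p of 0.0165 in edgeR). The log2 fold change of duox at 24 hpf and 0.5 mGy/h turned to 0.38 in batch I10 alone and to 0.082 over both batches with a batch covariate. The duoxa call was lost with all samples (3.02, adjusted p of 0.0166) and with separate fits (3.01, adjusted p of 0.0111), as was the krt17 call at 48 hpf (1.19 in both, adjusted p of 0.0485 and 0.0161). For 50 mGy/h at 24 hpf separate fits ended the calls of slc16a10 (1.08, adjusted p of 0.0150), krt4 (1.18, adjusted p of 0.0343) and cldne (0.98, adjusted p of 0.0104). The cause was not tested. Over all genes, for 0.5, 5 and 50 mGy/h, DESeq2 called 121, 2906 and 2219 in 24 hpf embryos, against 13, 1816 and 1079 in edgeR. In 48 hpf embryos DESeq2 called 243, 514 and 1296, against 10, 31 and 302 in edgeR. In 96 hpf larvae DESeq2 called 31, 338 and 1173, against 0, 56 and 33 in edgeR.

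When single samples were left out, the members called ranged from 0 to 1 at 24 hpf for each of the 3 dose rates and from 0 to 1 at 48 hpf for 50 mGy/h. The log2 fold change of duox ranged from -0.40 to 0.083, from -0.032 to 0.19 and from -0.15 to 0.32 at 24 hpf for 0.5, 5 and 50 mGy/h, and from -0.035 to 0.21, from -0.18 to 0.46 and from -0.13 to 0.23 at 96 hpf. Where 1 sample was left in a group it was assumed to vary like the other groups. Which values are followed one by one was narrowed after many values near 0 had been seen to change sign: those kept are duox and thrb in each exposure comparison and members at an unadjusted p under 0.05, beside the list genes called. For the other members, 35 values under an alternative had the opposite sign and 462 kept sign and call.

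Exposed and control samples share replicate numbers, but in no comparison with 3 or more such pairs did every pair correlate above 0.1, and not every sample correlated best with its own number. With a replicate block each count of members called stayed as reported, while trh for 5 mGy/h at 24 hpf (0.93, adjusted p of 0.0315 in edgeR) and, for 50 mGy/h at 48 hpf, duoxa (3.34, adjusted p of 0.0658) and krt17 (1.25, adjusted p of 0.0637) were no longer called, nor was fabp2 for 5 mGy/h at 24 hpf (0.71, adjusted p of 0.0435). For 0.5, 5 and 50 mGy/h, genes called under the block numbered 26, 838 and 1176 in 24 hpf embryos. They numbered 107, 4 and 3 in 48 hpf embryos, while 96 hpf larvae had 1, 112 and 2.

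Groups of 2 to 5 pools and few reads for slc5a5 and tshr limit the precision. Leaving out replicate 5 at 48 hpf or replicate 9 at 96 hpf of the 5 mGy/h groups, which have a high share of multiply mapped reads (an alternative chosen after seeing the data), changed no call of a member.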
